A study of Homo sapiens with 2 samples.

Results

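The genes described here are 8 tumor suppressor and cell-cycle inhibitor genes, RB1, CDKN2A, CDKN1A, CDKN1B, SMAD4, BRCA1, NME1 and NME2, among 20163 protein-coding genes of the annotation. They were followed by name through an RNA bisulfite sequencing study of MCF10A, a mammary epithelial cell line labelled normal, and MDA-MB-468, a line from a breast cancer and called the cancer line below where both are compared. A site was counted as covered when a cytosine on a same-strand exon of a GENCODE basic transcript (GRCh37) had 5 or more reads, and was tested for methylation at 10 or more. On this rule the 8 genes held 1683 of the 2870249 covered nuclear exonic sites of MCF10A and 1191 of the 2390567 of MDA-MB-468. Each line gave 1 library of poly(A)+ RNA treated with sodium bisulfite at 60 degrees for 8 hours, so no spread between replicates can be had and every comparison below is between 2 libraries. Bisulfite turns unmodified cytosine into uracil, so that an unconverted read is the signal of 5-methylcytosine (m5C), and the methylation ratio of a site is its share of unconverted reads. Cells were untreated; the labels name DMEM for both lines, whereas the study's methods name DMEM/F12 with horse serum, EGF, hydrocortisone and insulin for MCF10A and RPMI with FBS for MDA-MB-468, so line and medium cannot be told apart.

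These genes brake cell division at different points. The products of CDKN2A, CDKN1A and CDKN1B hold back cyclin-dependent kinases, which otherwise phosphorylate the retinoblastoma protein made by RB1 and release E2F transcription factors into the program of DNA replication. SMAD4 is the shared SMAD of TGF-beta and BMP signalling, BRCA1 acts in homologous recombination, and NME1 and NME2 are nucleoside diphosphate kinases, the first of which is known as a metastasis suppressor. MCF10A is known for homozygous loss of the chromosome region that holds CDKN2A, and MDA-MB-468 for homozygous loss of RB1 and of SMAD4 and amplified EGFR. DNA was not measured here, so those losses are background and not a result.

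The MCF10A library held 76098976 counts at 3146911 sites and the MDA-MB-468 library 90960018 counts at 3489803 sites, of which 68863765 and 49424455 were on exons. Over exonic or mitochondrial sites with 10 or more reads, the background nonconversion rate computed here was 1.99% for MCF10A and 1.81% for MDA-MB-468. The study, which left out sites of predicted structure, reported a higher background and fewer m5C sites for both lines. The source of that difference was not tested. Marker genes gave a mixed picture of the labelled tissue: EPCAM and CDH1, which define epithelial cells, had 1 and 6 covered sites in MCF10A but 215 and 320 in the cancer line, all 5 epithelial markers had covered sites in both lines, and TP63, ESR1 and PGR had none in either. Of the mesenchymal markers, VIM had 494 covered sites in MCF10A and 11 in the cancer line, and FN1 had 2209 and 315. The 3 leukocyte markers had no covered site. With 1 library a line, no result can be given without either library, and the part of cell identity in the differences below was not tested.

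The 8 genes differed in where they were covered. RB1 and SMAD4 were covered in MCF10A and had no listed site in MDA-MB-468, CDKN2A was the reverse, and CDKN1A, CDKN1B, BRCA1, NME1 and NME2 were covered in both lines. Since the files list sites with 5 or more reads, a gene with no listed site had fewer than 5 reads at every exonic cytosine, which is not a measured 0, and no fold is given against it. Of the 6 genes with 50 or more covered sites in MCF10A, 2 had none in MDA-MB-468, where 7.29% of all protein-coding genes did. Of the 5 genes with 50 or more in MDA-MB-468, 1 had none in MCF10A, beside 8.55% of all protein-coding genes. At 200 or more covered sites, a limit chosen after seeing the data, these shares were 4.27% and 7.12%. These counts of members are small and are given as a description.

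**Figure D1:**
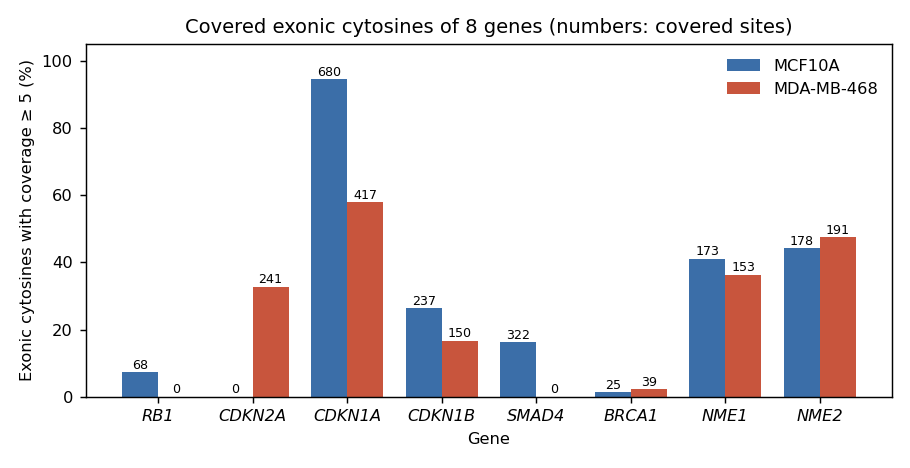
Share of each gene's exonic cytosines with 5 or more reads (vertical axis, percent) in MCF10A (blue bars) and MDA-MB-468 (red bars), with the number of covered sites above each bar. RB1 and SMAD4 have no red bar and CDKN2A has no blue bar, while CDKN1A reaches 94.6% in MCF10A and 58.0% in MDA-MB-468.

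RB1, the gene of the retinoblastoma protein, lies on the plus strand at chr13:48877880-49173572. In MCF10A 68 of its 937 exonic cytosines were covered, with a median of 5 reads and a highest value of 23. In MDA-MB-468 none was. The covered sites sat at the 5′ end of the transcript: 45 fell in exon 1 and 13 in exon 2, which held all 11 sites with 10 or more reads, and 8 fell in the last exon. At these 11 sites 3 of 185 counts were unconverted (1.62%, 95% Wilson interval 0.553% to 4.66%), and none was called m5C. Intervals here cover counting error alone, and neighbouring cytosines share reads, so they are too narrow. Below 10 reads the picture was different, since 34 of 306 counts (11.1%) were unconverted at the other 57 sites. They were concentrated in the C-rich run of exon 1, shown here because 6 of its cytosines (capitals) passed the Fisher test once the minimum was lowered to 5 reads.

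RB1 exon 1, MCF10A, chr13:48878107-48878136, plus strand: ccccggcaccgCCgCCgCCgccccctcctg

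Each of the 6 capitals had 6 reads, 3 or 4 of them unconverted, for 21 of 36 counts in all, while the other 14 cytosines of the window had 4 of 77. The same 6 reads may have been counted at each position; the deposited counts do not tie reads to sites, and this was not tested. Around RB1, coverage was not missing throughout MDA-MB-468. Of the 14 protein-coding genes within 1 Mb, 9 had covered sites in MCF10A and 9 in the cancer line. ITM2B, 33.4 kb away, had 136 and 125, FNDC3A, at 376.5 kb, had 206 and 33, and RCBTB1, at 932.5 kb, had 186 and 4. LPAR6 and RCBTB2, whose gene bodies overlap that of RB1, had no covered site in either line.

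CDKN2A encodes a pair of unrelated inhibitors from alternative first exons: INK4A, which binds CDK4 and CDK6, starts at exon 1α, and ARF, which binds MDM2, starts at exon 1β, and both run into the shared exon 2. The gene lies on the minus strand at chr9:21967751-21995300. In MCF10A none of its 735 exonic cytosines was listed. In MDA-MB-468 241 were covered, with a median of 40 reads and a highest value of 141, and 95 further sites lay in its introns. Both first exons were covered in MDA-MB-468, but unequally. All 85 cytosines of exon 1β (chr9:21994138-21994410) were covered, with a median of 51 reads, against 37 of 49 in exon 1α (chr9:21974677-21974865) with a median of 15. Exon 2 of the INK4A transcript had 94 of 106 covered at a median of 60.5 reads, and its last exon 15 of 123 at a median of 6.

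The nearest genes on either side of CDKN2A had the same pattern. CDKN2B, which encodes the related CDK4 and CDK6 inhibitor INK4B and lies 7.6 kb away, had 0 covered sites in MCF10A and 161 in the cancer line. MTAP, a gene of the methionine salvage pathway 30.1 kb on the other side, had 0 and 80. KLHL9, at 632.3 kb, had 60 and 13, so that MCF10A was covered at that distance. Of the 22 protein-coding genes within 1 Mb, 18 had no covered site in either line, most of them interferon genes.

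At the 194 tested sites of CDKN2A in MDA-MB-468, 206 of 11274 counts were unconverted (1.83%, interval 1.60% to 2.09%), close to the background of the line. Nevertheless 10 sites (5.15%) were called m5C by one-sided Fisher's exact test at an FDR of 0.05, where 0.84% of all tested sites of the line, or 0.742% of nuclear exonic ones, were called. They formed a pair of clusters of 5 cytosines, each within 8 nt, one in exon 1α and one in exon 2. The exon 1α window is shown because its ratios were the higher, with the called cytosines in capitals.

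CDKN2A exon 1α, MDA-MB-468, chr9:21974702-21974731, minus strand: ggaggcgggggCgCtgCCCaacgcaccgaa

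In exon 1α the methylation ratio of the called sites lay between 35.3% and 41.2%, from 6 or 7 unconverted reads of 17 or 18, with adjusted p from 2.85e-06 to 8.05e-05 (Fisher's exact test). The other covered cytosines of that window had 2 of 80 counts unconverted. A further exon 1α cytosine, chr9:21974738, had 3 of 16 reads unconverted (18.8%) and was not called (adjusted p = 0.227, Fisher's exact test). In exon 2 the ratios were lower, 12.5% to 18.8%, from 6 to 9 unconverted reads of 45 to 48, with adjusted p from 4.21e-05 to 0.0284 (Fisher's exact test). The exon 1α cluster, with 17 or 18 reads a site, could not be tested at a minimum of 20 reads, at which 5 CDKN2A sites were called. Because the counts at neighbouring sites are nearly equal, the 5 sites of a cluster may come from the same few reads, which was not tested. Folding of each transcript with RNAfold placed 9 of the 10 called sites in predicted double-stranded regions; over the tested CDKN2A sites, 50 lay in such regions with 2.55% of counts unconverted and 144 lay outside with 1.45%. Exon 1β, in which every cytosine was covered, had 84 tested sites, 1.34% unconverted and no called site.

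**Figure D2:**
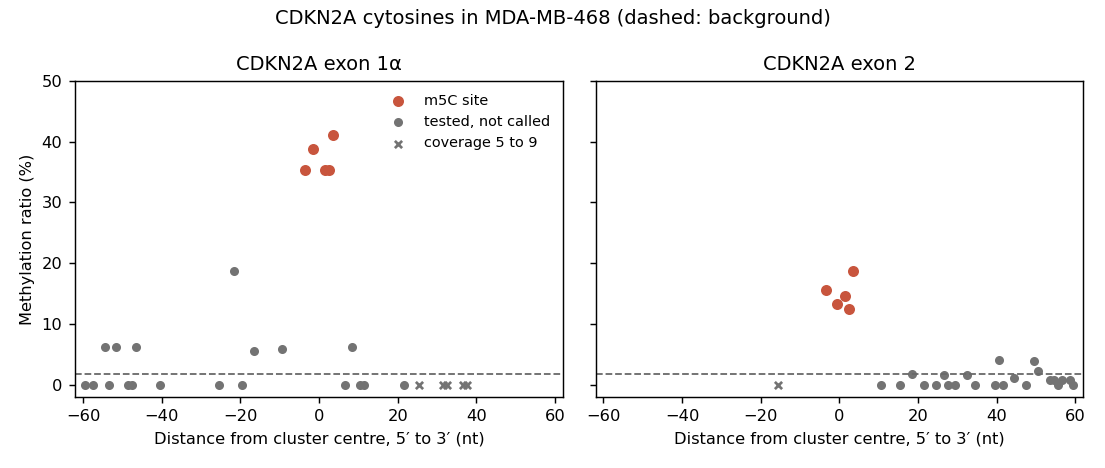
Methylation ratio (vertical axis, percent) of the CDKN2A cytosines within 60 nt of each cluster centre in MDA-MB-468, against distance in the RNA direction (nt). Red points are m5C sites, grey points tested sites that were not called, crosses sites with 5 to 9 reads, and the dashed line is the 1.81% background; the 5 called sites of exon 1α lie at 35.3% to 41.2% and those of exon 2 at 12.5% to 18.8%, with most neighbours near the background.

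CDKN1A encodes the CDK inhibitor p21 and lies on the plus strand at chr6:36644237-36655114. It was the best covered of the 8 genes in MCF10A. There 680 of 719 exonic cytosines were covered with a median of 126 reads and a highest value of 778. In MDA-MB-468 417 were covered with a median of 13 and a highest value of 32. Listed coverage per exonic cytosine, in which cytosines below 5 reads count as 0, was 189 in MCF10A and 7.96 in the cancer line. These levels ranked at percentiles 99.7 and 90.9 of the protein-coding genes of each line. After scaling the lines to their exonic counts, CDKN1A was 17.0-fold higher in MCF10A (log2 ratio of MDA-MB-468 over MCF10A -4.09), without a replicate check. In bulk RNA, fewer cells carrying a transcript and less of it per cell cannot be told apart. Introns of CDKN1A were listed too, with 594 sites at a median of 7 reads in MCF10A and 104 at a median of 6 in MDA-MB-468.

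The unconverted share of CDKN1A was 1.31% in MCF10A (1773 of 135522 counts at 649 sites, interval 1.25% to 1.37%), below the background of that line, and 2.08% in MDA-MB-468 (101 of 4864 counts at 296 sites, interval 1.71% to 2.52%). Of the tested sites, 2 were called m5C in MCF10A and none in MDA-MB-468. The first, in the coding sequence, had 22 of 310 reads unconverted (7.10%, adjusted p = 7.86e-05, Fisher's exact test). The second, in the 3′UTR, had 10 of 136 (7.35%, adjusted p = 0.0454, Fisher's exact test). Both ratios were low, and the sites around them had ratios of 1.15% to 5.30% in the first window and 0.498% to 4.80% in the second. In MDA-MB-468, where the deepest CDKN1A site had 32 reads, such a ratio was not detectable at this depth. At a minimum of 20 reads, with fewer sites tested, 5 CDKN1A sites were called in MCF10A, and at a minimum of 5 reads the 3′UTR site was not. Both cytosines called at 10 reads (capitals) lay in predicted double-stranded regions.

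CDKN1A coding sequence, MCF10A, chr6:36652120-36652149, plus strand: ggccccggcgaggcCgggatgagttgggag

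CDKN1A 3′UTR, MCF10A, chr6:36654045-36654074, plus strand: gcactttgaaggggCctcaccgagtggggg

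CDKN1B encodes p27, which inhibits cyclin E and cyclin A kinase complexes, and lies on the plus strand at chr12:12838432-12875303. Its coverage was confined almost wholly to exon 1 (chr12:12870302-12871248): 234 of 291 cytosines there were covered in MCF10A at a median of 17 reads, and 150 in MDA-MB-468 at a median of 8. Downstream, 3 sites were covered in MCF10A and none in MDA-MB-468. The highest coverage of the gene was 36 in MCF10A and 12 in the cancer line. Listed coverage per exonic cytosine was 4.61 and 1.31, a 2.53-fold higher value in MCF10A after scaling (log2 ratio -1.34). Over the sites listed in both lines its log2 ratio was -0.97, under 2-fold. At 210 tested sites in MCF10A 72 of 3963 counts were unconverted (1.82%, interval 1.45% to 2.28%). At 27 in MDA-MB-468 the figure was 2 of 290 (0.69%, interval 0.19% to 2.48%), which leaves little depth for a comparison. No CDKN1B site was called, and no tested site had more than 2 unconverted reads; 9 had 2 in MCF10A, the least covered of which was chr12:12870941 with 2 of 15 (adjusted p = 0.969, Fisher's exact test).

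SMAD4 carries signals of the TGF-beta receptors to the nucleus in complex with receptor-phosphorylated SMADs. It lies on the plus strand at chr18:48554898-48611415. In MCF10A 322 of its 1977 exonic cytosines were covered, with a median of 9 reads and a highest value of 30. In MDA-MB-468 none was listed. Of these sites, 41 were also on exons of an overlapping readthrough gene, ENSG00000267699. Coverage in MCF10A was spread over the transcript, with 71 sites in exon 1, 118 in the last exon and the best medians in exons 3 and 11, at 22 and 18 reads. The nearest genes with coverage shared the pattern: MEX3C, at 89.5 kb, had 493 covered sites in MCF10A and 0 in the cancer line, and ME2, at 74.3 kb, had 47 and 0. Further out, MBD1 (746.8 kb) had 569 and 170, and CXXC1 (740.7 kb) 438 and 268. MYO5B, at 833.4 kb, went the other way with 0 and 94.

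The unconverted share of SMAD4 in MCF10A was 0.94% (23 of 2448 counts at 157 sites, interval 0.63% to 1.41%), and no called site; chr18:48591883 came nearest, with 3 of 15 reads (adjusted p = 0.213, Fisher's exact test). The share was 1.57% at a minimum of 5 reads and 1.45% at 20. The other 165 sites, below 10 reads, had a higher unconverted share, as in RB1, with 32 of 1057 counts (3.03%). It was not spread evenly, since 16 of these 32 counts lay at 4 neighbouring cytosines of the 5′UTR. With the minimum lowered to 5 reads, these 4 cytosines were called, and their window is shown for that reason.

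SMAD4 5′UTR, MCF10A, chr18:48556791-48556820, plus strand: cccgccgcagggCggCCCgggagctcgagg

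These 4 sites had 16 of 22 counts unconverted, with 5 or 6 reads each, and the other 8 cytosines of the window had 1 of 40.

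BRCA1, on the minus strand at chr17:41196312-41322262, was close to the limit of the files in both lines. It had 25 covered sites of 1739 in MCF10A and 39 in the cancer line. The medians were 5 and 7 reads, and no site exceeded 8 in either, so that none could be tested for m5C. In the last exon 17 sites were covered in MCF10A and 35 in MDA-MB-468; 5 covered sites in MCF10A fell in the large exon 10. Listed coverage per exonic cytosine was 0.081 and 0.145, and with fewer than 50 sites a line no ratio is read. Over all covered sites 2 of 140 counts were unconverted in MCF10A and 6 of 253 in the cancer line.

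NME1 and NME2 lie in tandem on chromosome 17, at chr17:49230920-49239789 and chr17:49242796-49249105, and share the annotated readthrough gene NME1-NME2. Their coding sequences, 456 nt each, are 80.9% identical, and 86.2% identical when C is read as T, the alphabet in which bisulfite reads are aligned. Their longest shared stretch in that alphabet was 35 nt, and each covered site of both genes, and of the other member genes, lay in at least 1 window of 50 nt that was unique in the converted genome. NME1 differed little in listed coverage between the libraries once these were scaled to their exonic counts. It had 173 sites of 421 at a median of 52 reads in MCF10A and 153 at a median of 30 in MDA-MB-468, and its highest coverage was 174 and 187. Listed coverage per exonic cytosine was 25.8 and 18.9, a log2 ratio of 0.03 after scaling. NME2 was higher in MCF10A. It had 178 sites of 402 at a median of 142 reads in MCF10A and 191 at a median of 41 in MDA-MB-468, with highest values of 667 and 219. Listed coverage per exonic cytosine was 97.7 and 28.3, 2.48-fold higher in MCF10A (log2 ratio -1.31). Of the covered sites, 119 of NME1 and 114 of NME2 in MCF10A, and 106 and 107 in MDA-MB-468, also belonged to exons of the readthrough gene; without these sites the log2 ratio was -2.03 for NME2 and 0.46 for NME1.

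Unconverted shares of NME1 were 1.93% in MCF10A (205 of 10645 counts at 142 sites, interval 1.68% to 2.20%) and 1.84% in MDA-MB-468 (144 of 7838 at 134 sites, interval 1.56% to 2.16%), and no site was called. Its most unconverted reads at a site were 7 of 146, at chr17:49238588 in MCF10A (adjusted p = 0.881, Fisher's exact test). The shares of NME2 were 1.66% (649 of 39159 at 163 sites, interval 1.54% to 1.79%) and 2.34% (263 of 11239 at 172 sites, interval 2.08% to 2.64%). Over sites on exons of no other gene, which leaves out those of the readthrough gene, the shares of NME2 were 1.36% in MCF10A and 5.09% in the cancer line, and those of NME1 were 2.47% and 1.40%. In NME2 the difference lay in the 5′UTR, where 1.41% of counts in MCF10A (interval 1.21% to 1.63%) and 4.89% in MDA-MB-468 (interval 4.06% to 5.88%) were unconverted, while the coding sequence had 1.82% and 1.83% and the 3′UTR 1.02% and 0.18%. The 5′UTR of NME1 differed in the same direction, with 2.34% (interval 1.59% to 3.44%) and 6.05% (interval 3.91% to 9.26%), at a median of 44 and 15 reads. A site counted as 5′UTR where any basic transcript of its gene placed it there, also if another placed it elsewhere. Exon 1 of the canonical NME2 transcript held 36 of the 58 tested 5′UTR sites in MCF10A and 32 of the 72 in MDA-MB-468. The sites differed in part between the lines, and 47 were tested in both. The 5′UTR sites of NME2 had a median of 136.5 reads in MCF10A and 30.5 in the cancer line, so that depth differed with conversion. The part of depth was not tested.

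In NME2, 2 adjacent coding cytosines were called in MCF10A, with 9 of 88 and 9 of 87 reads unconverted (10.2% and 10.3%, adjusted p = 0.00878 and 0.00814, Fisher's exact test). They lay 8 nt from the start of exon 2 and also on an exon of NME1-NME2. In MDA-MB-468 the same cytosines had 0 of 59 and 2 of 58. The remaining called site, in the 5′UTR, was found in MDA-MB-468 with 5 of 29 reads (17.2%, adjusted p = 0.0211, Fisher's exact test). The first window is the spliced sequence over the junction of exons 1 and 2.

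NME2 exons 1 and 2 spliced, MCF10A, chr17, plus strand: ttcccggaccatggCCaacctggagcgcac

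NME2 5′UTR, MDA-MB-468, chr17:49243818-49243847, plus strand: ctcccagcgcagcgCcgccgcccggcccct

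The called 5′UTR cytosine did not stand apart from its neighbours. The other 17 covered cytosines of its window had 49 of 595 counts unconverted, with ratios of 6.38% to 12.1%, and the whole of exon 1 had 7.15% in MDA-MB-468 against 1.33% in MCF10A.

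**Figure D3:**
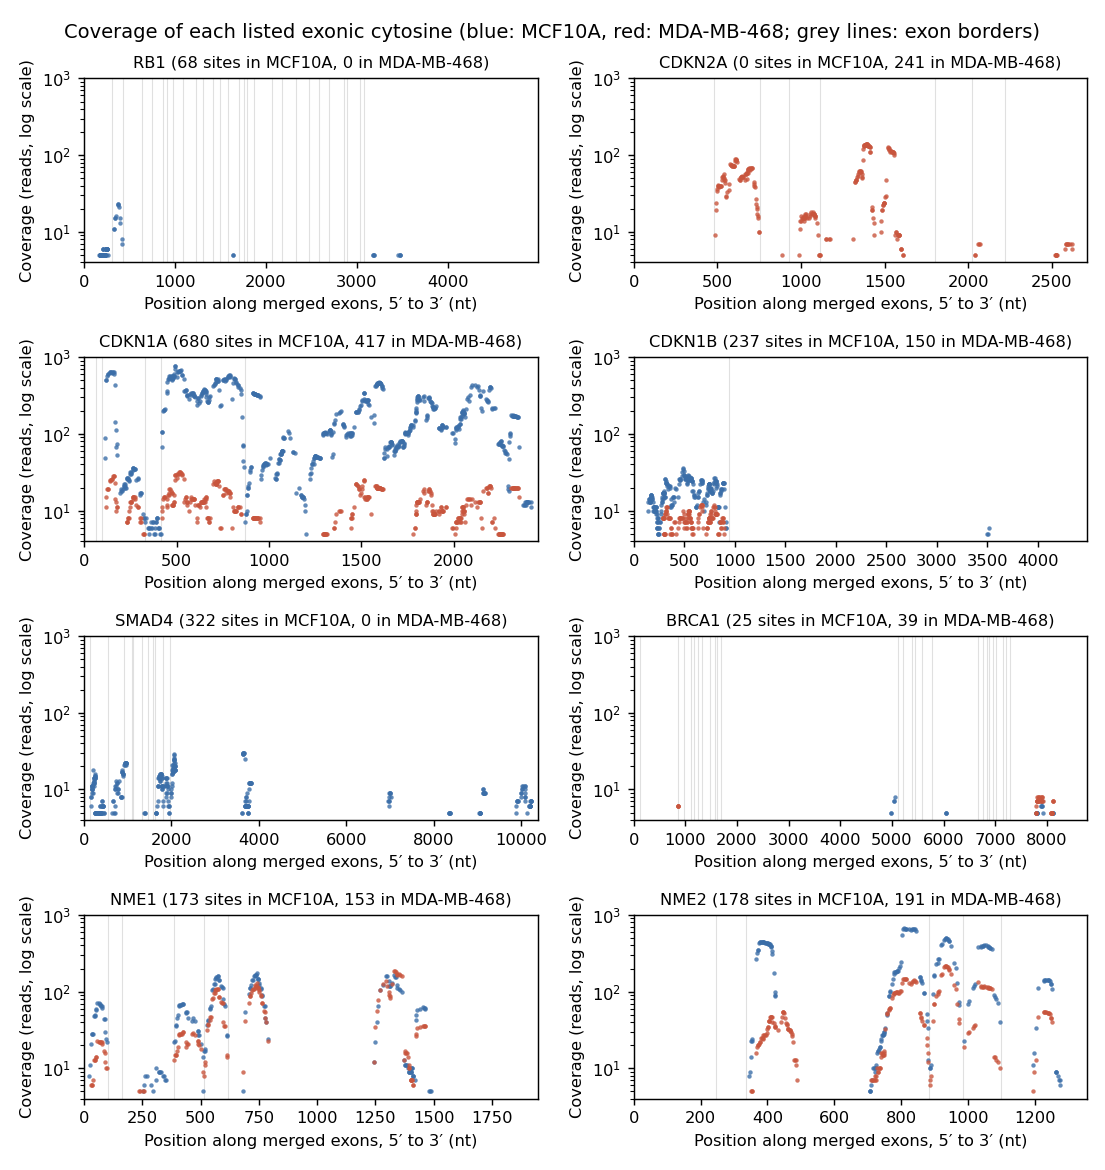
Reads at each listed exonic cytosine (vertical axis, log scale) against its position along the merged exons of each gene in the RNA direction (nt), for MCF10A (blue) and MDA-MB-468 (red), with grey lines at exon borders. Reads are not scaled between the lines. CDKN1A and NME2 run higher in MCF10A along most of the transcript, and NME1 has a median of 52 reads in MCF10A and 30 in MDA-MB-468. RB1, CDKN1B and BRCA1 are covered over short stretches.

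Among the 6474 protein-coding genes with 50 or more covered sites in each line, 22.6% had at least 2-fold higher listed coverage in MCF10A and 22.7% in MDA-MB-468. Of the member genes, 4 could be placed in this comparison: CDKN1A, CDKN1B and NME2 were at least 2-fold higher in MCF10A, NME1 was not, and none was at least 2-fold higher in MDA-MB-468. Over the sites listed in both lines, CDKN1B fell below 2-fold. Scaling to all counts of each file instead of the exonic ones shifted every log2 ratio by -0.74, so that 42.1% of genes were then at least 2-fold higher in MCF10A and 11.1% in the cancer line. NME1, at -0.71 under that scaling, sat at the shifted median, so its direction depends on the scaling.

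**Figure D4:**
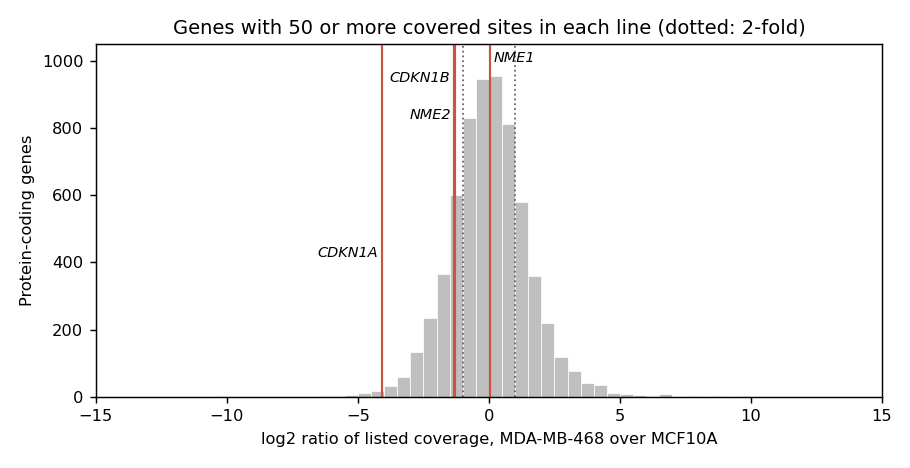
Number of protein-coding genes (vertical axis) by log2 ratio of listed coverage, MDA-MB-468 over MCF10A, in bins of 0.5, with red lines at 4 member genes and dotted lines at 2-fold. CDKN1A lies at -4.09 in the lower tail, CDKN1B and NME2 at -1.34 and -1.31, and NME1 at 0.03 in the middle.

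Taking all tested sites of the 8 genes, 1.42% of counts were unconverted in MCF10A (2725 of 191922, interval 1.37% to 1.47%) and 2.02% in MDA-MB-468 (716 of 35505, interval 1.88% to 2.17%). CDKN1A gave most of the MCF10A counts. Of 1332 tested sites in MCF10A 4 were called m5C (0.300%), beside 0.96% of all tested sites of that line and 0.851% of nuclear ones. Of 823 in MDA-MB-468 11 were called (1.34%), beside 0.84% of all tested sites of that line and 0.742% of nuclear ones. The CDKN2A clusters held 10 of these 11. By gene, 2 of the 6 members with a tested site in MCF10A and 2 of 5 in the cancer line held a called site, beside 21.1% and 16.9% of all genes with a tested site. Regions predicted double-stranded in at least 1 basic transcript held 13 of the 15 calls, and leaving them out left 0 in MCF10A and 2 in MDA-MB-468. By gene and line, such regions held from 11.2% (NME1 in MDA-MB-468) to 25.8% (CDKN2A in MDA-MB-468) of the tested sites. Both NME2 calls of MCF10A were paired in another transcript but not in the canonical one, and would stay if that transcript alone were used.

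**Figure D5:**
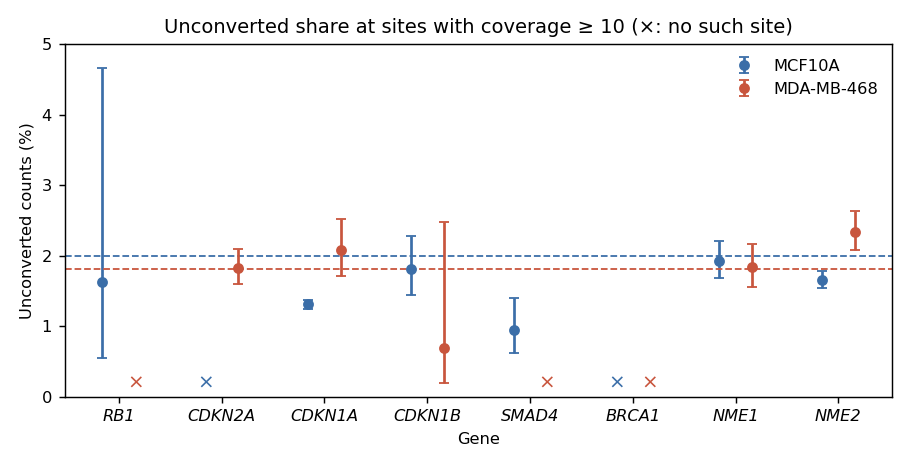
Share of unconverted counts (vertical axis, percent) at sites with 10 or more reads in each gene, for MCF10A (blue) and MDA-MB-468 (red), with 95% Wilson intervals as bars, dashed lines at each line's background and a cross where no site reached 10 reads. CDKN1A at 1.31%, NME2 at 1.66% and SMAD4 at 0.94% in MCF10A have intervals below that line's 1.99% background, and NME2 at 2.34% in MDA-MB-468 lies above that line's 1.81%.

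For sites tested in both lines, the ratios were compared by two-sided Fisher's exact test. Of 812729 such sites 0.0893% differed at an FDR of 0.05 and 1.14% at an unadjusted p under 0.05. None of the 601 member sites differed after adjustment, while 32 did unadjusted. The study names NME2 among its genes differentially methylated between these lines. It used QNB at a significance level of 0.05 and left out sites of predicted structure, so test and sites differ from those here. In CDKN1A 7 of 296 sites had an unadjusted p under 0.05. All 7 were higher in MDA-MB-468, but at a median of 15 reads there a lower ratio could hardly reach this p, so their direction says nothing. Of the CDKN1A sites compared, 54 were higher in MDA-MB-468 and 78 in MCF10A in the 3′UTR, 8 and 19 in the 5′UTR, and 29 and 84 in the coding sequence. At this depth 204 of the 296 sites had no unconverted read in MDA-MB-468, so these site counts do not give a direction. Pooled shares in MCF10A and MDA-MB-468 were 1.10% and 2.54% in the 3′UTR. They were 1.34% and 1.49% in the 5′UTR, and 1.26% and 1.70% in the coding sequence. In NME2 25 of 147 sites had an unadjusted p under 0.05, and 21 of the 25 lay in its 5′UTR, where the median was 27 reads in MDA-MB-468 and the same limit on direction holds. In that region 31 sites were higher in MDA-MB-468 and 9 in MCF10A; over its 47 sites tested in both lines 1.42% and 5.75% of counts were unconverted. The smallest p was at the called 5′UTR cytosine of NME2, with 7 of 433 reads in MCF10A and 5 of 29 in the cancer line (Fisher's exact test, p = 0.0004, adjusted p = 0.314). CDKN1B and NME1, with 27 and 131 shared sites, had none under 0.05.

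Genes that act beside the members were read from fixed lists, by listed coverage and without a test. For the list counts below, 22.6% of all 6474 genes were at least 2-fold higher in MCF10A and 22.7% in MDA-MB-468. Of all genes with 50 or more covered sites in MCF10A, 7.29% had none in MDA-MB-468. The share the other way was 8.55%. Around RB1 at the G1/S border, 13 of 24 genes had 50 or more sites in each line, with a median log2 ratio of -0.32, beside -0.00053 over all 6474 genes; 3 were at least 2-fold higher in MCF10A and 1 in MDA-MB-468. E2F1, the transcription factor held by the retinoblastoma protein, was the one higher in MDA-MB-468 (log2 ratio 2.85). CDK4, the kinase that INK4A inhibits, and TFDP2, an E2F partner, were higher in MCF10A (log2 ratios -1.56 and -1.60). E2F2, another activating E2F, had 0 covered sites in MCF10A and 196 in the cancer line, whereas cyclin D2 (CCND2) had 69 and 0. Of 13 measurable E2F target and replication genes, 3 were at least 2-fold higher in MDA-MB-468 and 1 in MCF10A, at a median log2 ratio of -0.03. Thymidine kinase TK1 and the helicase subunit MCM3 were higher in MDA-MB-468 (log2 ratios 1.72 and 1.64), and the ribonucleotide reductase subunit RRM1 was higher in MCF10A (-1.34).

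TGF-beta and SMAD genes, which work through SMAD4, were lower in MDA-MB-468 in most cases: 5 of 7 measurable genes were at least 2-fold higher in MCF10A, none was in MDA-MB-468, and the median log2 ratio was -2.31. The ligand TGFB1 and the receptor-activated SMAD3 had log2 ratios of -2.66 and -2.64. SMAD7 and SKIL, which restrain the pathway, had 71 and 104 covered sites in MCF10A and 0 in the cancer line. ID3 was the measurable gene with the highest ratio (0.46).

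Of 13 partners of BRCA1 in DNA repair, UIMC1 and BABAM1 had 50 or more sites in each line (log2 ratios -0.39 and 0.71), while RBBP8, which starts DNA end resection, and BABAM2 had 68 and 54 covered sites in MCF10A and 0 in the cancer line. Of the other NME genes, NME3 and NME4 were measurable and within 2-fold (log2 ratios -0.17 and -0.89). Of 8 other tumor suppressor genes, 7 had 50 or more sites in each line, with a median log2 ratio of -0.92. Of these 7, 2 were at least 2-fold higher in MCF10A, beside 22.6% of all genes, and 0 in MDA-MB-468. The lowest ratio was that of NF1, which restrains RAS (log2 ratio -2.23), and the highest that of TSC2 (0.46). EGFR, amplified in MDA-MB-468 as background, had a log2 ratio of 3.66.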

How the data were processed

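Poly(A)+ RNA of 1 library each of MCF10A and MDA-MB-468 was measured by bisulfite sequencing. The authors trimmed reads with Trim Galore, aligned them to hg19 with MeRanGs and called cytosines with MeRanCall (the submitters' processing notes list Bismark in place of these), and deposited, per cytosine and strand, raw counts of unconverted and converted reads. The methods give a coverage minimum of 10 reads, but the deposited counts start at 5, so shares at 5 to 9 reads are less precise; genes under 5 reads are not listed. Positions were checked against the GRCh37 sequence, and all nuclear positions fell on cytosines of their strand. Sites were assigned to same-strand exons of GENCODE v44lift37 basic transcripts. Sites on exons or the mitochondrial genome with 10 or more reads (median 18 in each library) were compared with the pooled nonconversion of their line by Fisher's exact test (one-sided), with Benjamini-Hochberg adjustment over all tested sites (FDR 0.05); this called 15203 of 1584002 MCF10A sites and 10675 of 1271253 MDA-MB-468 sites. Sites tested in both lines were compared by two-sided Fisher's exact test, since QNB, used in the study, was not installed. A test on reads compares libraries, not conditions. PCR duplicates had been limited but not removed, and reads are shared between neighbours, so that Wilson intervals cover counting error only.

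The study's structure filter was replaced by an alternative: RNAfold 2.7.2 (MEA 0.1, 70 degrees, pairing distance 150) on 36 basic transcripts, those over 2000 nt in windows of 2000 nt, a length chosen after seeing the run time. Scripts used Python 3.11.15, SciPy 1.17.1 and numba 0.67.0 and were tested on simulated counts. Other coverage minimums, transcript sets, scalings, backgrounds and tests were tried as alternatives. The named genes were the 8 members, called sites, and, of each list, genes with 50 or more covered sites in 1 line and 0 in the other and the 2 largest ratios in each direction; EGFR, other neighbours and the sites below 10 reads were named after their values were seen. The members and lists were chosen with earlier results of these data known. Some genes of the lists and 1 sequence are not reported here.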

Additional observations from a re-analysis of the deposited data

Results flagged for a closer look

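Sites on the strand opposite to a member gene entered no comparison. BRCA1 had 213 such sites in MDA-MB-468 and 28 in MCF10A, against 39 and 25 covered sites on its own exons. Of these, 68 in MDA-MB-468 and 19 in MCF10A lay on exons of NBR2, the neighbour transcribed from the opposite strand, and 33 and 9 on exons of ENSG00000267681. RB1 had 13 in MCF10A, all on the pseudogene PCNPP5. NME1 had 6 in MCF10A, and CDKN2A had 1 in MDA-MB-468, on CDKN2B-AS1. They are listed here because they are a signal in data that the report does not use.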

How the results depend on the processing

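Of 50 values for the 8 genes together under the alternatives, 37 stayed the same, within 1.5 times for counts or within the counting interval for shares. Raising the minimum to 20 reads left 1011 covered sites in MCF10A and 480 in the cancer line, an unconverted share of 1.86% in MDA-MB-468, and 7 and 6 m5C sites, 5 of the 7 in CDKN1A; lowering it to 5 gave 13 m5C sites in MCF10A, 10 of them in RB1 and SMAD4, while the 3′UTR site of CDKN1A was not called. The MCF10A share was 1.37% over sites kept in both lines and 1.34% over sites of no other gene, and averaging site ratios gave 1.76% in MCF10A and 2.62% in the cancer line. Leaving out predicted double-stranded sites left 0 and 2 m5C sites. Testing only sites called in at least 1 line gave 1 differential site among 3 member sites, the NME2 5′UTR cytosine (Fisher's exact test, adjusted p = 0.00509). The cause of these shifts was not tested, except that fewer sites are tested at a higher minimum and among called sites. No log2 ratio of listed coverage that was at least 2-fold changed sign, while that of NME1 went from 0.03 to -0.71 when scaled by all counts. Over sites listed in both lines, 2 genes in place of 3 were at least 2-fold higher in MCF10A, without CDKN1B (log2 ratio -0.97). No paired analysis was possible because each line has 1 library, and for the same reason no replicate could be left out. Depth limits BRCA1, with no site at 10 reads, RB1 in MCF10A and CDKN1B in MDA-MB-468 most.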
